A study of Mus musculus with 15 samples.

Results

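Mdm2 and Ube4b, genes of p53 control, and Terf2, a telomere gene, each carried a somatic call in haematopoietic stem cells (HSCs) of old mice. They were taken as the rows of the deposited list of all calls whose gene annotation was one of these names. This gave 3 calls of the 32 in the series, 1 per gene, each in a different mouse and each in a single HSC fraction. The genes were picked because a call was listed in them, so that they carry a call is not a result. All values, among them those the caller used, are given as a description with no test.

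Mdm2 encodes the main ubiquitin ligase of the tumour suppressor p53: it binds the activation domain of p53 through its N-terminal domain and marks p53 for destruction, and p53 in turn activates the Mdm2 gene. Ube4b encodes a U-box ligase that lengthens ubiquitin chains and acts with Mdm2 on p53. Terf2 encodes TRF2, a shelterin protein that binds double-stranded telomere repeats and keeps chromosome ends from being read as DNA breaks. In HSCs, p53 takes part in the response to DNA damage and in quiescence, and telomere erosion is known to limit the capacity of these cells in mice without telomerase.

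Whole-exome sequencing compared HSCs that engage autophagy with HSCs that do not. All mice were old, at steady state, with genotype Gfp-lc3/Gfp-Lc3, a reporter in which green fluorescent protein is fused to the autophagosome protein LC3 and whose signal falls as autophagy proceeds. AThi cells were the GFPlo HSCs and ATlo cells the GFPhi HSCs, each frozen as a pellet of about 10000 cells, and tail DNA of the same mouse was the germline baseline. The samples used here were 5 AThi, 5 ATlo and 5 tail libraries from 5 mice, while the stated design has 6 pairs, and the labels give no age in months and no sex. The DNA holds no expression values, so HSC identity could not be checked against marker genes and rests on the labels.

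The Mdm2 call lay in ATlo cells of mouse 3, at position 117701622 of chromosome 10, a G>A change on the reference strand. It was the only one of the 3 annotated as splicing. In transcript NM_010786 it is c.291-8C>T, in the intron 8 bases before exon 6, and in NM_001288586 it is c.144-8C>T, 8 bases before exon 5. The base is therefore on the acceptor side of the intron, outside the dinucleotide that ends it, in the stretch where pyrimidines usually precede the acceptor, and the change puts one pyrimidine in place of another on the coding strand. The coding positions of the exon differ by 147 bases, or 49 codons, between both transcripts, so the intron interrupts codon 97 of the longer reading frame and codon 48 of the shorter one, in both cases before the third base. Both counts are those of the deposited annotation. Of all 32 calls, the authors' deposited table counted 3 as splicing, 1 in AThi cells, 1 in ATlo cells and 1 in both, and Mdm2 was the one in ATlo cells. The one in AThi cells was a deletion in Rgs16, which encodes a regulator of G protein signalling.

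In Mdm2 the alternate allele fraction, the share of reads with the changed base as the caller estimated it, was 0.267 at 42 reads in ATlo cells (95% Wilson interval 0.153 to 0.411). These reads amount to an estimated 11 with the changed base. In the tail DNA of mouse 3 the fraction was 0.036 at 10 reads, an estimate that rounds to 0 changed reads. A count of 0 of 10 allows a share of up to 30%, taken as 3 counts of the total, and the 95% Wilson upper bound is 0.278. Both are above the fraction seen in the HSCs. The HSC minus tail difference was 0.231, and its 95% Newcombe interval from the rounded reads ran from -0.0362 to 0.411 and so included 0. The quality score of the call was 13.1. No call of the AThi library of mouse 3 was listed at any site. Whether calling found none there or gave no result cannot be told from the lists, and the place of Mdm2 in ATlo cells only depends on this. The depth and fraction at the Mdm2 site in that library are not in the lists used here.

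The Ube4b call lay in AThi cells of mouse 4, at position 149342840 of chromosome 4, a G>C change annotated as intronic. The gene is on the minus strand in RefSeq (GRCm38.p6), so the change reads C>G on the coding strand. The allele fraction was 0.296 at 20 reads in AThi cells (95% Wilson interval 0.145 to 0.519), an estimated 6 changed reads. In tail DNA it was 0.041 at 15 reads, an estimated 1 changed read. The difference of 0.255 had a 95% Newcombe interval of -0.0450 to 0.459, which also included 0. This interval too was computed from rounded reads, with the tail estimate rounded up to 1, and no other rounding was tried. With a quality score of 7.8, Ube4b stood at rank 17 of the 18 calls made in a single fraction, above Tmem67 at 6.5 alone.

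The Terf2 call lay in ATlo cells of mouse 5, at position 107071804 of chromosome 8, an A>C change annotated as intronic, or T>G on the coding strand by the RefSeq orientation. The allele fraction was 0.261 at 23 reads in ATlo cells (95% Wilson interval 0.125 to 0.465), an estimated 6 changed reads. In tail DNA it was 0.03 at 34 reads, an estimated 1 changed read. The difference of 0.231 had a 95% Newcombe interval of 0.0507 to 0.437. With the reads as rounded here, Terf2 was the only one of the 3 whose interval stayed above 0. At such low tail depths that contrast can depend on the rounding, which was not varied. Its quality score of 20.6 was the highest of the 3 and equal to that of the deletion in the integrin gene Itgal, at rank 3 of 18. Entries of calls made in both fractions had scores of 24.7 to 649.3, with a median of 120.7. The scores of all 3 genes thus lay below the lowest of those entries.

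**Figure D1:**
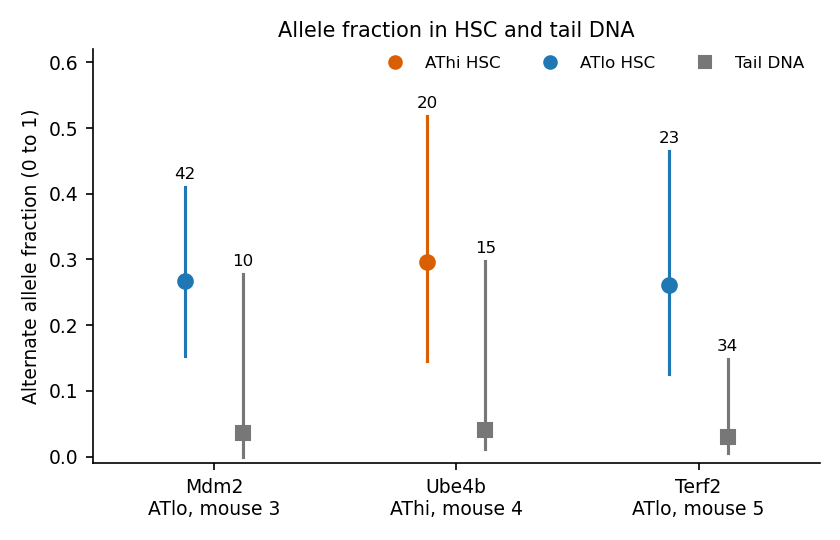
Alternate allele fraction (vertical axis, 0 to 1) of the Mdm2, Ube4b and Terf2 calls in the HSC library that carries each (circles) and in tail DNA of the same mouse (squares), with 95% Wilson intervals from rounded reads as lines and the depth in reads above each. The HSC fractions of 0.261 to 0.296 lie above the tail fractions of 0.03 to 0.041, and the HSC and tail intervals overlap for all 3 genes.

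These intervals cover counting error only, as reads may be copies of a molecule, and each call comes from 1 library with no replicate. The caller contrasted HSC with tail DNA to make each call, so the size of that difference is not independent evidence of it. The interval of the difference also included 0 in 7 of the 15 other calls made in a single fraction, and in 0 of the 26 entries of calls made in both. An interval that includes 0 does not show that the fractions were equal. As arithmetic alone, a heterozygous change on a diploid autosome stands in a share of cells 2 times its allele fraction. That would be 53.4% of the ATlo cells for Mdm2 (30.6 to 82.1% from the Wilson bounds), 59.2% of the AThi cells for Ube4b (29.1% to a bound that passes 100% and was set to it) and 52.2% of the ATlo cells for Terf2 (25.1 to 92.9%), if the caller's fractions hold.

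By the authors' deposited table, all 3 calls were in a single fraction, 1 in AThi cells only (Ube4b) and 2 in ATlo cells only (Mdm2 and Terf2). Over all 32 calls, 56.2% were made in a single fraction, 31.2% in AThi cells only and 25% in ATlo cells only. A set of 3 calls is too small to be read against these shares, and no difference between AThi and ATlo cells is drawn from it. None of them was called in more than 1 mouse, and mice 1 and 2 had no call in these genes. None carried a dbSNP identifier in the deposited annotation, where 1 of 44 entries had one.

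Whether the changed base was present in the other fraction was not measured, since the lists give no reads there. For Ube4b, the ATlo library of mouse 4 had 21 to 91 reads at its own 7 called sites. At the 4 sites called in both libraries of this mouse, the ATlo depth was between 0.883 and 1.25 times the AThi depth. For Terf2, the AThi library of mouse 5 had 22 and 23 reads at its 2 called sites, near the 23 reads of the Terf2 site in ATlo cells. For Mdm2 no such value could be given, as the AThi library of mouse 3 had no entry.

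These 3 calls stood next to each other when the 18 calls made in a single fraction were ordered by allele fraction. Ube4b was at rank 6, Mdm2 at rank 7 and Terf2 at rank 8, with a spread of 0.035 among them, less than the width of any of their intervals. Their order is therefore not resolved at this depth. By the difference in allele fraction, the nearest call above was Crlf2, a cytokine receptor subunit gene called in ATlo cells at 0.313, which is 0.017 above Ube4b. The nearest below was Dgka, a diacylglycerol kinase gene called in AThi cells at 0.26, which is 0.001 below Terf2. Terf2 and Dgka were called in the same mouse, at the same depth of 23 reads and with the same substitution class, in opposite fractions. The other 15 calls in a single fraction ran from 0.079 to 0.42, with a median of 0.203. The 26 entries of calls made in both fractions had a median of 0.49 and ran from 0.167 to 0.998, so the 3 genes lay below their median and inside their range.

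**Figure D2:**
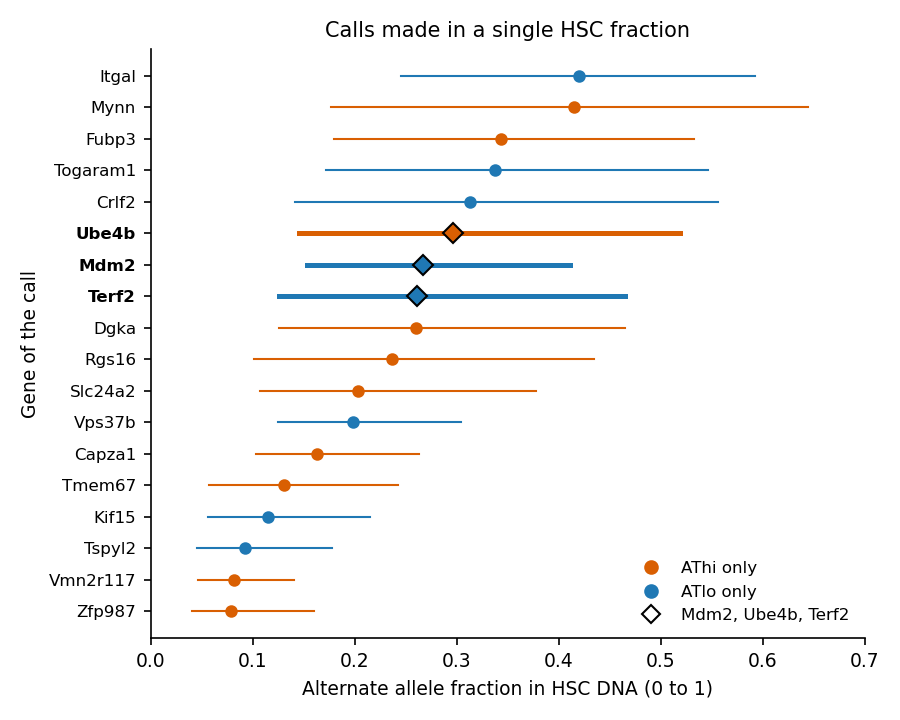
Alternate allele fraction in HSC DNA (horizontal axis, 0 to 1) of the 18 calls made in a single fraction, ordered from highest to lowest, with 95% Wilson intervals; orange marks AThi only, blue ATlo only, and diamonds the 3 genes. Ube4b, Mdm2 and Terf2 hold ranks 6 to 8, and their intervals overlap each other and those of their neighbours Crlf2 and Dgka.

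By allele fraction, Mdm2 was the highest call of its own library, while Ube4b and Terf2 were each the lowest of theirs. Mdm2 had the highest fraction and the lowest depth of the 3 calls in ATlo cells of mouse 3. It stood 0.069 above Vps37b, an endosomal sorting gene, at 0.198 of 75 reads, with a 95% Newcombe interval of -0.0887 to 0.228. It stood 0.174 above Tspyl2, a nucleosome assembly family gene on chromosome X, at 0.093 of 76 reads, with an interval of 0.0310 to 0.326. Ube4b had the lowest fraction, the lowest depth and the lowest quality of the 6 calls in AThi cells of mouse 4. The other call made only in AThi cells of this mouse was in Fubp3, a nucleic acid binding protein gene, at 0.343 of 24 reads (Ube4b minus Fubp3 -0.047, interval -0.286 to 0.234). The shared autosomal calls in the collagen gene Col5a2 and the cytochrome P450 gene Cyp2j6 stood at 0.488 and 0.449 there, and the intervals of their differences from Ube4b, -0.376 to 0.0568 and -0.329 to 0.0911, included 0. Only Shroom2, on chromosome X at 0.863, stood apart from Ube4b by its interval in this library (Ube4b minus Shroom2 -0.734 to -0.279). Terf2 was the lower of the 2 calls in ATlo cells of mouse 5, with a difference from Crlf2 of -0.052 and an interval of -0.330 to 0.214.

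**Figure D3:**
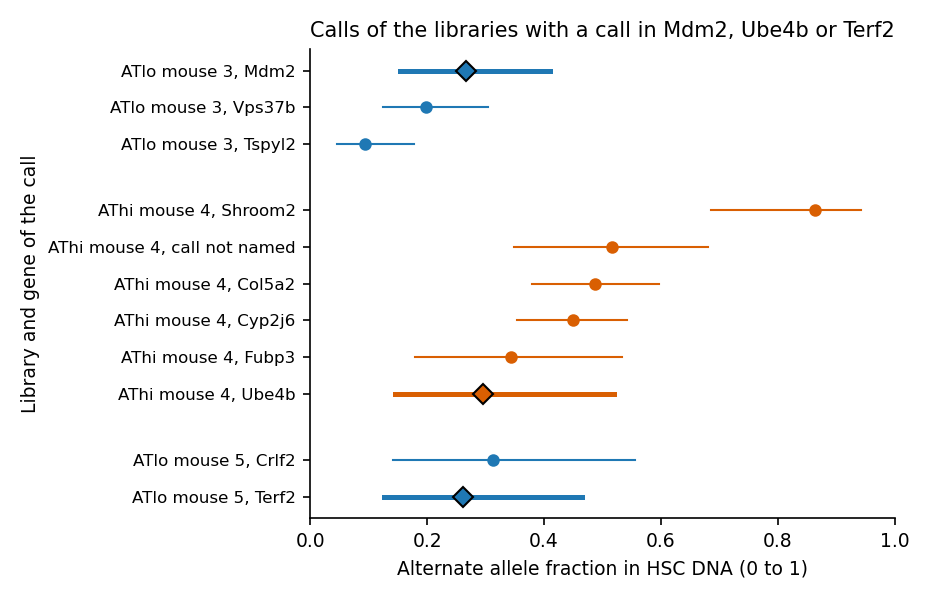
Alternate allele fraction in HSC DNA (horizontal axis, 0 to 1) of every call with values in the 3 libraries that carry Mdm2, Ube4b or Terf2 (diamonds), with 95% Wilson intervals; blue is ATlo and orange AThi, and a call of mouse 4 is not reported here by name. Mdm2 is the highest of 3 calls, Ube4b the lowest of 6 and Terf2 the lower of 2.

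Each of the 3 genes had another kind of substitution. With both strands folded so that the changed base is a pyrimidine, Mdm2 was C>T, Ube4b C>G and Terf2 T>G. As all 3 genes are on the minus strand, the folded base is also that of the coding strand. C>T made up 12 of the 27 substitutions in the series, 9 of 13 among shared calls and 3 of 14 among calls in a single fraction. Of these 3, Mdm2 had the highest fraction, above Capza1 at 0.163 and Tmem67 at 0.131, both in AThi cells of mouse 1. Ube4b was the only C>G change of the 27. T>G was seen in 5 of the 14 single-fraction substitutions and in 0 of the 13 shared ones. Terf2 had the highest fraction of these 5, next to Dgka at 0.26, Slc24a2 at 0.203, Tspyl2 at 0.093 and Zfp987 at 0.079. The bases on either side of the sites were not analysed here.

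HSC depth at the 3 sites was below the planned coverage of 150, and tail depth was below the planned 30 at Mdm2 and Ube4b. The plan is for a whole library, while these are depths at single sites, 2 annotated as intronic and 1 as splicing. They do not measure whether a library met its plan. The HSC reads came to 28% of the plan for Mdm2, 13.3% for Ube4b and 15.3% for Terf2, and the tail reads to 33.3%, 50% and 113%. The other 15 calls in a single fraction had a median of 33 HSC reads (range 13 to 134) and 31 tail reads (range 10 to 67). Entries of shared calls had medians of 88 HSC reads (range 28 to 371) and 83 tail reads (range 41 to 280). Mdm2 had 4.2 HSC reads per tail read, the highest of all 44 entries, where the other single-fraction calls ran from 0.759 to 2.1 and shared entries from 0.651 to 1.325. The 10 tail reads of Mdm2 were the lowest tail depth in the lists, shared with Mynn and Togaram1, both short insertions. The tail fractions of 0.03 to 0.041 compare with a median of 0.018 (range 0 to 0.062) in the other single-fraction calls and 0.015 (range 0.002 to 0.038) in shared entries. At least 1 changed read was estimated in tail DNA for 2 of the 3 genes and for 11 of the other 15. Depth was thus lower at calls made in a single fraction than at shared ones by these medians, with ranges that overlap, and its part in the calls in Mdm2, Ube4b and Terf2 was not tested.

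**Figure D4:**
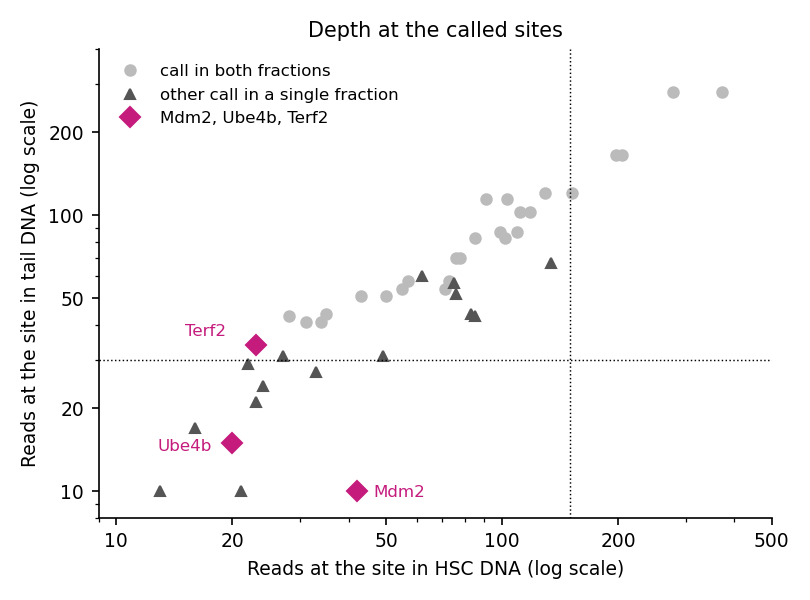
Reads at the site in HSC DNA (horizontal axis, log scale) against tail DNA (vertical axis, log scale) for the 44 entries with values; dotted lines mark the planned coverage of 150 and 30. Ube4b (20 and 15 reads) and Terf2 (23 and 34) lie among the other calls made in a single fraction (triangles), and Mdm2 (42 and 10) lies apart from the band of the other entries.

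The rest of both pathways was searched by name. Of 30 genes of the p53 pathway, among them Trp53 itself, the Mdm2 partner Mdm4, the Mdm2 inhibitor Cdkn2a, the deubiquitinase Usp7, the damage kinases Atm and Chek2 and the target Cdkn1a, a call was listed in 2, Mdm2 and Ube4b, and in none of the other 28. Of 25 telomere genes, a call was listed in Terf2 and in none of the other 24, which included the shelterin genes Terf1, Terf2ip, Tinf2, Acd, Pot1a and Pot1b and the telomerase genes Tert and Terc. Which of these genes were covered by reads is not known from lists of calls, so that no call was listed does not show that a gene had no mutation. As the 3 genes were picked for their roles from the list of calls, these counts say nothing about either pathway as a whole.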

How the data were processed

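The exomes were captured and sequenced by either of 2 services, per the labels' protocols; no source used here says which mouse went to which. The submitters' processing notes name Bowtie2. HSC libraries were called against tail DNA of the same mouse with Mutect2, per the file headers and the name of the deposited calls. Versions, filters and build were not given in the sources used. Depths are counts of reads and allele frequencies are fractions estimated by the caller, per the file headers; depth times fraction gave whole reads, within 0.0005 of the fraction, in 1 of the 3 calls. The deposited quality is a score of unstated scale. A summary by the authors places each call, and its place matched the list in 3 of 3 calls. All 3 positions lay inside the gene of that name in RefSeq (GRCm38.p6), used for names and strand only; the coordinates are those of the call lists.

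Changed reads were taken as the product of depth and fraction, rounded. Wilson and Newcombe intervals at 95% were tested on simulated whole-read counts, and the exact Clopper-Pearson intervals, also at 95%, were not. The simulated tail depth was that of Ube4b throughout, and the rounding of fractions to reads was not simulated. Coverage of the difference intervals at the tail depths of Mdm2 and Terf2 was therefore not checked. No test was run: each call is in 1 library and the genes were chosen from the calls. The genes, both pathway lists and the alternatives were chosen with earlier results of these data known. The rule named the 3 genes, their neighbours by allele fraction, the other calls of their libraries and list genes with a call. Genes named for a shared substitution class, depth, quality or annotation, and list genes without a call, were added after the values were seen. Of the calls, 1 has no values among those used here and 1 is not reported by name. Python 3.11.15 was used with SciPy 1.17.1, NumPy 2.4.6 and Matplotlib 3.10.9.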

Additional observations from a re-analysis of the deposited data

How the results depend on the processing

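The 3 allele fractions were 0.262 for Mdm2, 0.30 for Ube4b and 0.261 for Terf2 as estimated reads over depth, and the HSC minus tail differences 0.262, 0.233 and 0.231. The exact intervals were 0.139 to 0.420, 0.119 to 0.543 and 0.102 to 0.484. The number of calls in AThi cells fell from 1 to 0, the loss of Ube4b, at a depth of at least 30 or 50 reads, at least 10 estimated alternate reads, no estimated alternate read in tail or a tail fraction under 0.02, and leaving out single mice gave 0 to 1 (0 without mouse 4). In ATlo cells it fell from 2 to 1 at a depth of 30 or at 10 alternate reads (Mdm2 kept), and with no tail read (Mdm2 kept). It was 0 at a depth of 50 or a tail fraction under 0.02, and leaving out single mice gave 1 to 2 (1 without mouse 3 or 5). Mdm2 passed the setting of no tail read because its tail fraction of 0.036 at 10 reads rounds to 0. Terf2 was removed there with the lower tail fraction, 0.03 at 34 reads, which rounds to 1. That setting therefore does not show a cleaner tail for Mdm2. In settings added after the data were seen, tail depths of at least 20 or 30 kept Terf2 alone (0 in AThi, 1 in ATlo), and a quality of at least 10 removed Ube4b alone. Among 13 autosomal substitutions Ube4b, Mdm2 and Terf2 held ranks 3, 4 and 5, and among all 31 calls with values ranks 18, 19 and 20. Leaving out single mice gave ranks of 5 to 6, 3 to 7 and 4 to 8, the lowest numbers for Mdm2 and Terf2 being without mouse 4. These shifts follow from which calls are ranked. Protein-altering or splice-region calls were 1 in the p53 list (Mdm2) and 0 in the telomere list; without single mice the lists had 1 to 2 and 0 to 1 calls. No paired analysis was possible because the lists give no value at these sites in the other HSC fraction of the mouse, so no AThi and ATlo pair could be formed; HSC and tail DNA of a mouse were set side by side without a test. Depths of 10 to 42 reads limit all fractions.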
